A study of Bos taurus with 129 samples.

Results

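The transcripts described here encode proteins that the glands and lining epithelium of the uterus are known to secrete or to use in secretion. The 8 members, SERPINA14, GRP, LTF, CST3, CST6, PIGR, OVGP1 and LCN2, were chosen by gene symbol, with earlier results of these data known. All 8 were found among the 35158 genes of the newer experiment (E2, 75 bp single-end reads), and 7 of them among the 24616 rows of the older experiment (E1, 100 bp paired-end reads). The libraries came from lactating Holstein cows at day 16 and were labelled as normal pregnancy (N), embryo mortality (EM) or non-pregnant (NP). Endometrium gave 9 N, 6 EM and 7 NP libraries in E2 and 8 N, 4 EM and 7 NP libraries in E1, and the conceptus gave 9 N and 6 EM in E2 and 8 N and 4 EM in E1. All pregnant cows of the E2 conceptuses were inseminated after ovulation was synchronized, with semen of the same bull, and their conceptuses were flushed from the uterine horn, rinsed and classed as N when long and translucent or as EM when discoloured, opaque or short. The group EM is therefore a class of appearance, and the sources used here do not say how the endometrium was sampled, how the cows of E1 were handled or how NP cows were chosen.

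Uterine glands of ruminants release a mixture of proteins, known as histotroph or uterine milk, which feeds and surrounds the conceptus before it attaches. In that mixture SERPINA14 is the uterine serpin, a protein of the protease inhibitor family that progesterone induces in the glands, and GRP is gastrin-releasing peptide, a signalling peptide made by the glands of the pregnant uterus in ruminants. CST3 (cystatin C) and CST6 (cystatin E/M) block cysteine proteases. LTF (lactotransferrin) binds iron and acts against bacteria, PIGR (the polymeric immunoglobulin receptor) carries immunoglobulin A across epithelium into the lumen, and LCN2 (lipocalin 2) binds the iron carriers of bacteria. LTF and LCN2 are also stored in the granules of neutrophils. OVGP1 is best known as the glycoprotein that the oviduct secretes.

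In the UMD3.1 assembly used for E1, GRP lay on chromosome 24 (58710084 to 58722719), LTF on chromosome 22 (53521906 to 53556089), PIGR on chromosome 16 (4533505 to 4551569) and CST3 on chromosome 13 (42562167 to 42566091). OVGP1 lay on chromosome 3 (32047399 to 32059347) and LCN2 on chromosome 11 (98793763 to 98797809). CST6 had 2 neighbouring rows on chromosome 29 (44766936 to 44768173 and 44770865 to 44771529), and reads of the gene may be split between them. SERPINA14 was not among the E1 symbols. A row without a symbol, described in the table as uterine milk protein (chromosome 21, 59667405 to 59678093), carries a name that RefSeq lists as a synonym of SERPINA14, and it is given beside the members without being counted as one. The E2 tables hold no lengths or positions.

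Levels are given as CPM, the count of a gene relative to the total count of its library on the usual scale. Endometrium libraries held 12779997 to 18662203 counts in E2 and 8217465 to 12388469 in E1, and E2 conceptus libraries 10532188 to 24482117. In E1 conceptuses the range was 106785 to 14581706, and EM S5 and EM S4 were the shallowest with 106785 and 224034 counts. All 6 genes of an interferon response list were higher in N than in NP endometrium in both experiments, as pregnancy at this day is known to produce. In endometrium 3 libraries are followed below. NP S31 of E1 had an epithelial keratin and adhesion marker sum of 5602 CPM against at most 1361 in the other E1 libraries and a stroma marker sum of 6458 CPM against at least 17333. EM S83 of E2 had a leukocyte marker sum of 1974 CPM, while no N or NP library of E2 passed 202. NP S69 of E2 had the largest stroma sum, at 32624 CPM, against at most 26332 in EM and 24383 in N. Apart from these, the erythrocyte sum in E1 endometrium reached 456 CPM in EM (median 0.633), against at most 1.70 in N and 5.68 in NP. Results that rest on NP S31, EM S83 or NP S69 are given with and without them. Each E2 conceptus came from its own cow by the study's methods. For the other libraries the sources used here do not say whether those of a group came from separate cows, so their p-values measure the spread between libraries, which may be technical. In bulk tissue, fewer cells of a type and less RNA per cell cannot be told apart.

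Per kilobase of exon, GRP was the most abundant member in E1 endometrium, with a median of 1686 CPM per kb over the 19 libraries. CST3 followed with 364, then the CST6 rows with 118.05 and 66.4, LTF with 26.9, OVGP1 with 6.05, the uterine milk protein row with 5.93, PIGR with 5.13 and LCN2 with 0.446 CPM per kb. The members from OVGP1 to PIGR had medians within 1 CPM per kb of each other. SERPINA14, GRP, LTF, PIGR and CST6 had higher medians in endometrium than in corpus luteum and in mononuclear cells of the blood. LCN2 was highest in blood cells, with a median of 18.9 CPM in E2, and CST3 and OVGP1 were present in every tissue.

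**Figure D1:**
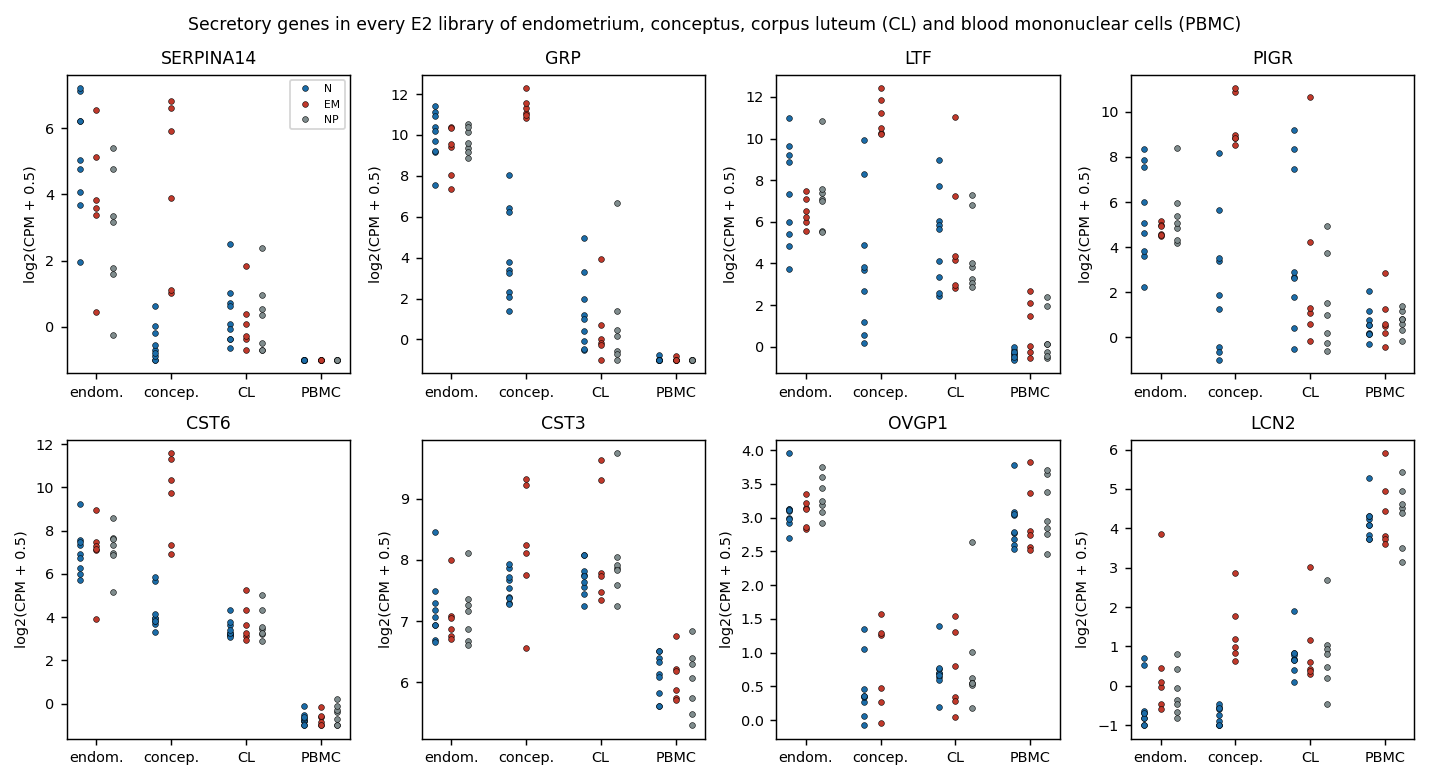
Levels of the 8 members in each E2 library for endometrium, conceptus, corpus luteum and blood cells (y axis log2(CPM + 0.5), 1 point per library coloured by N, EM or NP, 1 panel per gene). SERPINA14, GRP, LTF, PIGR and CST6 have higher medians in endometrium than in corpus luteum and blood cells, LCN2 has its highest median in blood cells, and LTF and PIGR reach 2063 and 1598 CPM in 1 corpus luteum library.

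The question put to the endometrium was whether these transcripts differed between the uterus of a normal pregnancy, of embryo mortality and of no pregnancy. In the E2 endometrium, SERPINA14 was the member with the widest difference between N and NP. It ranged from 3.38 to 148 CPM in the 9 N libraries, with a median of 32.4, and from 0.335 to 41.8 CPM in the 7 NP libraries, with a median of 8.48. In EM it was 9.95 CPM in S71, 92.5 in S73, 34.4 in S75, 13.7 in S77, 0.863 in S80 and 11.5 in S83. All 3 groups overlapped, and the EM libraries spanned nearly the whole range of the others. The log2 difference of N minus NP was 2.26 with a standard error (SE) of 0.89, a ratio of 4.80 (edgeR quasi-likelihood test, adjusted p = 0.35), so it did not pass the threshold of 0.05 once adjusted over 19038 genes. The means were 58.5 ± 54.3 CPM (SD, n = 9) in N and 13.2 ± 15.4 (SD, n = 7) in NP.

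In E1 the uterine milk protein row separated N from NP. It ranged from 7.91 to 56.2 CPM in the 8 N libraries, with a median of 17.9, and from 0.676 to 4.7 in the 7 NP libraries, with a median of 1.81. The lowest N library was above the highest NP library, while 1.07% of the 14084 genes tested had groups that did not overlap. N was 9.97-fold NP (log2 difference 3.32, SE 0.57, edgeR adjusted p = 0.0019), and in this comparison 2.52% of all genes passed the test. Over fits that each left out 1 library the log2 difference lay between 2.98 and 3.84, and the largest edgeR adjusted p was 0.0073. The EM libraries of E1 held 8.68, 6.54, 19.3 and 24.9 CPM, within the range of N apart from the lowest, and above every NP library. EM minus NP was 2.61 on the log2 scale (SE 0.62, edgeR adjusted p = 0.171), which did not pass the test over all genes. It passed without NP S31 (3.14, edgeR adjusted p = 0.025) and with DESeq2 (adjusted p = 0.014).

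**Figure D2:**
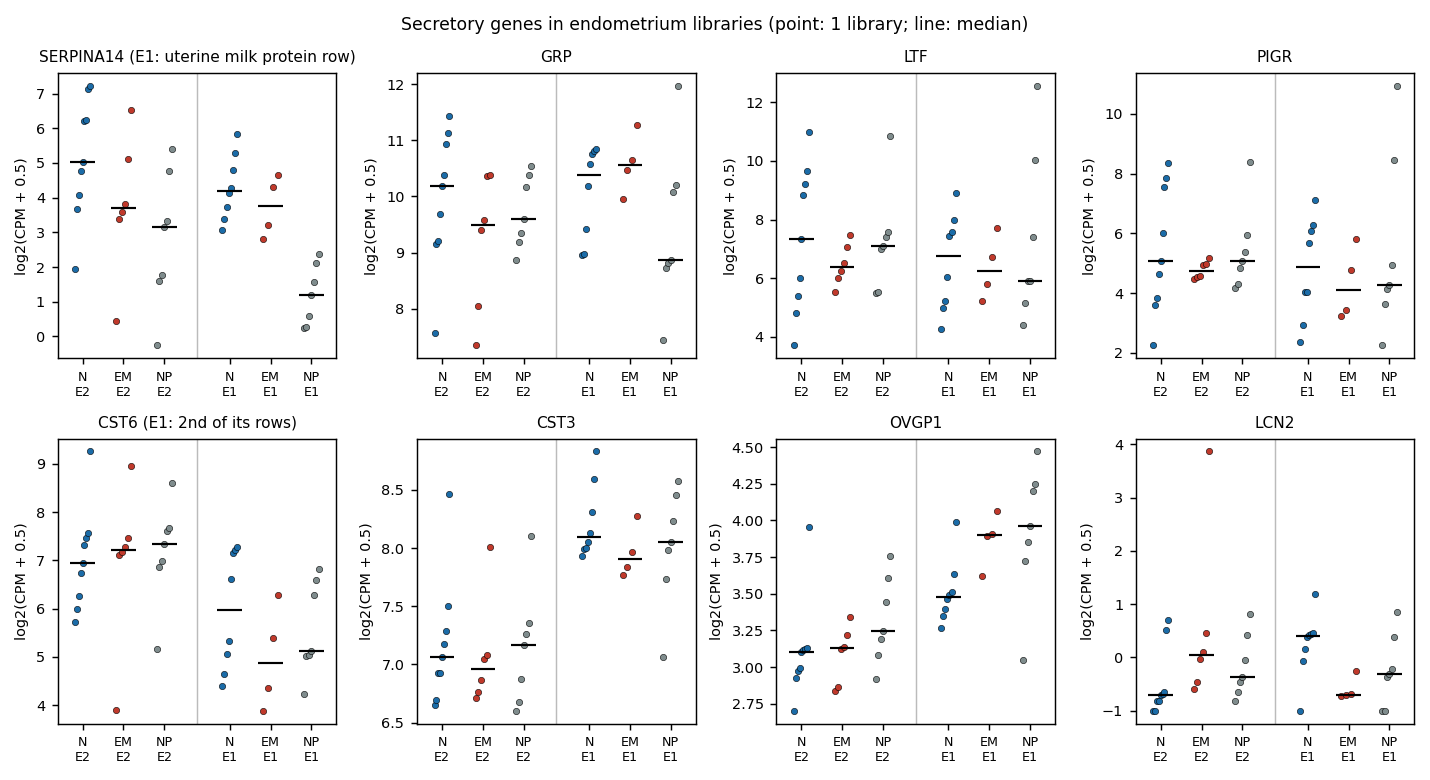
Level of each member in every endometrium library (y axis log2(CPM + 0.5), 1 point per library, horizontal bars at group medians) for N, EM and NP in E2 and E1, where E1 shows the uterine milk protein row under SERPINA14 and the second of the CST6 rows. SERPINA14 in E2 runs from 3.38 to 148 CPM in N and from 0.335 to 41.8 in NP, and the E1 uterine milk protein row shows no overlap between N (7.91 to 56.2 CPM) and NP (0.676 to 4.7 CPM).

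GRP, the gland peptide, was abundant in all groups. It ranged from 189 to 2753 CPM in N of E2 (median 1166), from 162 to 1327 in EM (median 720) and from 465 to 1499 in NP (median 774). The groups overlapped, and the log2 difference was 0.61 for N minus NP (SE 0.46, edgeR adjusted p = 0.774) and -0.87 for EM minus N (SE 0.49, edgeR adjusted p = 0.714, unadjusted 95% interval -1.84 to 0.09). In E1 the 8 N libraries spanned 496 to 1834 CPM, the 4 EM libraries 988 to 2481 and the 7 NP libraries 173 to 3994, the last being NP S31. Without NP S31 the E1 log2 difference of N minus NP for GRP moved from -0.18 to 1.05 (edgeR adjusted p = 0.918 and 0.12), so 1 library set its sign.

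LTF and PIGR, the defence proteins of epithelium, varied widely between the N libraries of E2 and less between its EM libraries. LTF ranged from 12.6 to 2031 CPM in N of E2 (median 161), from 45.9 to 178 in EM (median 83.8) and from 45.2 to 1828 in NP (median 138). PIGR ranged from 4.26 to 330 CPM in N (median 33.1), from 21.9 to 35.7 in EM (median 26.7) and from 17.5 to 337 in NP (median 33.5). The 6 EM libraries lay in the lower part of the range of N for both genes, but not at its low end. N S82, S84 and S85 were below every EM library for both genes. The upper end of the NP range was S69 alone, as the next NP library held 190 CPM for LTF and 60.8 for PIGR. Without S69 the NP range was 45.2 to 190 CPM for LTF and 17.5 to 60.8 for PIGR, and all EM libraries lay within it. For LTF they spanned nearly all of it. EM minus N was -2.26 for LTF (SE 1.04, edgeR adjusted p = 0.599) and -1.91 for PIGR (SE 0.88, edgeR adjusted p = 0.596), and neither passed the test. The high NP values of both genes came from S69, and without it N minus NP moved from 0.27 to 2.10 for LTF (edgeR adjusted p = 0.321) and from 0.35 to 1.75 for PIGR (edgeR adjusted p = 0.337).

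In E1 the same genes were high in NP S31 and NP S25. LTF was 5996 CPM in NP S31 and 1055 in NP S25, against 20.6 to 170 in the 5 other NP libraries, 18.8 to 483 in the 8 N libraries and 37 to 210 in the 4 EM libraries. PIGR was 1944 CPM in NP S31 and 352 in NP S25, against at most 140 in every other endometrium library of E1. The log2 difference of N minus NP was -3.27 for LTF (SE 1.18, edgeR adjusted p = 0.158) and -3.36 for PIGR (SE 1.22, edgeR adjusted p = 0.163). Without NP S31 these values were -0.48 and -0.52 (edgeR adjusted p = 0.77 and 0.763). The part of the epithelial markers of NP S31 in these values was not tested.

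The cystatins had similar medians in the groups of E2. CST6 ranged from 52.3 to 611 CPM in N (median 122.1), from 14.4 to 495 in EM (median 149) and from 35.4 to 386 in NP (median 162). CST3 ranged from 99.9 to 352 CPM in N (median 133), from 104.1 to 257 in EM (median 124.01) and from 96.6 to 275 in NP (median 143). N minus NP was 0.18 for CST6 (SE 0.57, 95% interval -0.94 to 1.29) and 0.17 for CST3 (SE 0.30, 95% interval -0.42 to 0.76). The sign of every E2 contrast of these genes changed when 1 library was left out. In E1 the CST6 rows were lower in EM than in N by -1.22 (SE 0.66, edgeR adjusted p = 0.458) and -1.12 (SE 0.65, edgeR adjusted p = 0.492) on the log2 scale, which did not pass the test, and N minus NP was 0.53 and 0.44.

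OVGP1 was low and even, from 6.01 to 15 CPM in N of E2 (median 8.09), from 6.64 to 9.65 in EM (median 8.26) and from 7.05 to 13 in NP (median 8.98). In E1 it ranged from 9.12 to 15.4 CPM in N (median 10.6) and from 7.77 to 21.7 in NP (median 15.1), with 14.4, 14.5, 16.2 and 11.8 CPM in the EM libraries S14 to S17. The E1 groups overlapped, and the lowest NP library, S31, was below every N library. The log2 difference of N minus NP in E1 was -0.43 (SE 0.13, edgeR adjusted p = 0.081). It passed the test without NP S31 (-0.49, edgeR adjusted p = 0.0285) and with DESeq2 (-0.44, adjusted p = 0.0232). In E2 the same contrast was -0.05 (SE 0.19).

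LCN2 was near the limit of counting in endometrium. It ranged from 0 to 1.13 CPM in N of E2 (median 0.115), from 0.0695 to 1.25 in NP (median 0.273) and from 0.161 to 14.1 in EM (median 0.53), where only S83 passed 0.879. EM minus N was 3.30 (SE 0.99, edgeR adjusted p = 0.268) and fell to 0.54 without EM S83 (edgeR adjusted p = 0.955). EM S83 also had the highest leukocyte sum, 1974 CPM, and its neutrophil marker sum was 13.3 CPM, between the 4.82 of EM S80 and the 29.8 of EM S75. The part of leukocytes in this value was not tested. LCN2 did not pass the filter on low counts in E1.

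By edgeR 0 of 8 members tested passed the threshold in any of the 3 endometrium contrasts of E2, where 1.41% of all genes passed for N minus NP (1.38% higher and 0.0263% lower), 0% for EM minus N and 0.247% for EM minus NP, all higher. At an unadjusted p under 0.05 the counts were 1 (SERPINA14), 3 (LCN2, LTF and PIGR) and 1 (LCN2), and DESeq2 called 0 members in each. EM minus NP of LCN2 was 2.77, and 0.005 at its lowest over fits without 1 library. In E1, of 6 members tested by symbol, 0 passed in N minus NP (2.52% of all genes, 2.14% higher and 0.383% lower), EM minus N (1.38%, 0.263% higher and 1.12% lower) and EM minus NP (0.0426%, 0.0355% higher and 0.0071% lower). At an unadjusted p under 0.05 these counts were 3 (LTF, OVGP1 and PIGR), 0 and 2 (LTF and PIGR). EM minus NP in E1 was -3.89 for LTF and -4.28 for PIGR, and -1.10 and -1.44 at the weakest over fits without 1 library. The share of all genes at an unadjusted p under 0.05 was not counted, here or below. DESeq2 called 3 members in N minus NP of E1 (LTF, OVGP1 and PIGR, all lower in N), where it called 5.25% of all genes, and 0 in the others. The median log2 difference over the 8 members of E2 was 0.22 for N minus NP, -0.55 for EM minus N and -0.12 for EM minus NP, beside 0.01, 0.02 and 0.03 over all genes. No member had groups that did not overlap in these contrasts, beside 0.441%, 0.0473% and 0.116% of all genes in E2 and 1.07%, 1.55% and 1.14% in E1.

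**Figure D3:**
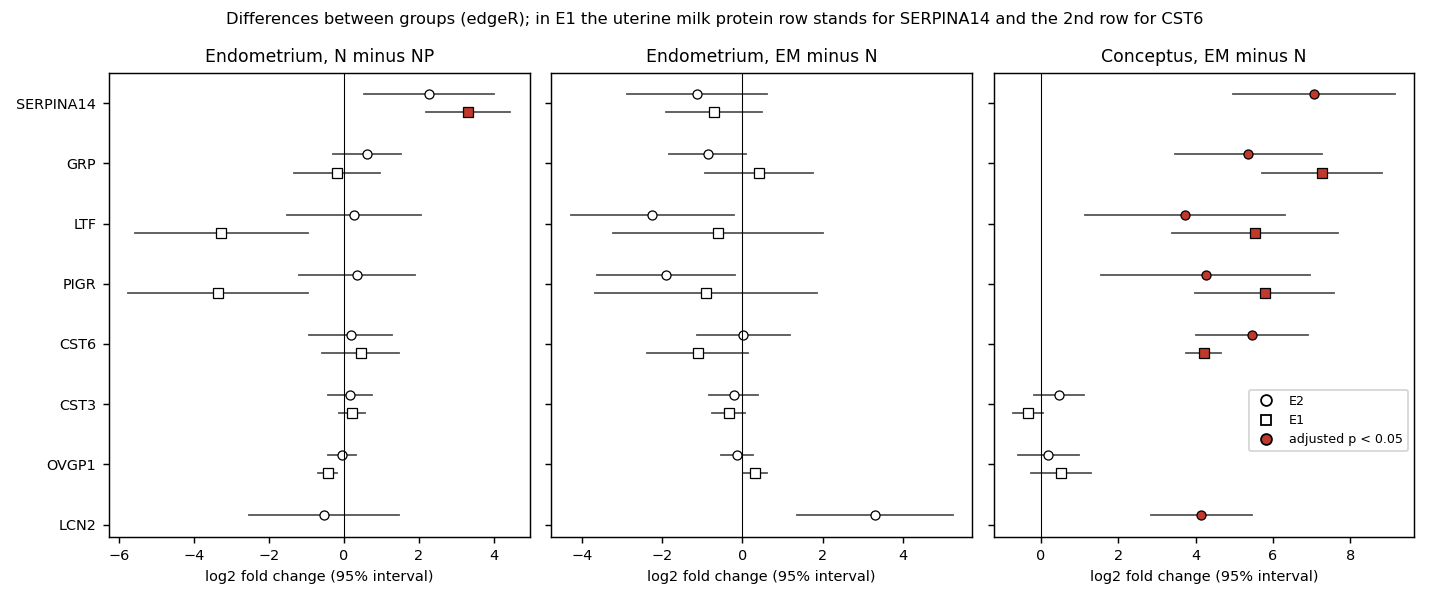
Log2 differences with unadjusted 95% intervals for each member in endometrium and conceptus contrasts of E2 and E1 (x axis in log2 units, zero line drawn), with a panel each for endometrium N minus NP, endometrium EM minus N and conceptus EM minus N. Circles are E2, squares E1 (uterine milk protein row and second CST6 row), and filled red marks passed at an adjusted p under 0.05. Endometrium intervals are wide for LTF, PIGR and LCN2, and for SERPINA14 in E2. The E2 conceptus differences of EM minus N lie to the right for SERPINA14 (7.07), CST6 (5.46), GRP (5.37), PIGR (4.26), LCN2 (4.15) and LTF (3.73).

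The experiments were also compared in the endometrium, by an interaction over the 12805 genes with a unique symbol in both. By edgeR 0 of 6 members differed between E2 and E1 in N minus NP or in EM minus N, and 0 of all genes did. At an unadjusted p under 0.05 they were LTF and PIGR in N minus NP (3.58 with SE 1.51 and 3.73 with SE 1.45 higher in E2, both at an edgeR adjusted p of 1.00) and LCN2 in EM minus N (5.44, SE 1.57, edgeR adjusted p = 0.125). Without NP S31 of E1 the LTF and PIGR values were 0.76 and 0.86. The LCN2 value was 2.79 at its lowest over fits without 1 library. EM S83 held 14.1 CPM of LCN2, and no other EM library of E2 passed 0.879. With the uterine milk protein row standing for SERPINA14, the N minus NP difference of E2 minus that of E1 was -1.13 (SE 1.06), which did not pass the test.

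Within the endometrium some members followed each other and others did not. LTF and PIGR had a Pearson r of 0.93 and a Spearman rho of 0.86 over the 22 E2 libraries (permutation p = 1e-05 each, the smallest that 100000 permutations can give, adjusted p = 6.33e-05 and 9.5e-05 over 19 relations). In E1 r was 0.98 and rho 0.94 over 19 libraries, with the same p of 1e-05. After the 2 farthest libraries were left out r was 0.89 in E2 and 0.94 in E1, and within groups 0.92 and 0.98. These pairs were chosen after their values were seen, and the adjustment over 19 relations does not cover that choice.

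GRP followed the epithelial marker sum, with r = 0.76 (permutation p = 7e-05, adjusted p = 0.000266) and rho = 0.61 (permutation p = 0.0034) in E2 and r = 0.86 (permutation p = 1e-05) and rho = 0.80 (permutation p = 7e-05) in E1. Without the 2 farthest libraries r was 0.54 and 0.75, and within groups 0.81 and 0.87. LTF did not follow this sum in E2, with r = -0.02 and rho = 0.03 (permutation p = 0.944 and 0.893). In E1 the r of LTF with the sum was 0.65 (permutation p = 0.00363) and rho 0.44 (permutation p = 0.06), and r fell to 0.43 without NP S31 and NP S25. SERPINA14 and GRP had r = 0.56 in E2 and rho = 0.55 (permutation p = 0.00617 and 0.00877), and r = 0.51 without the 2 farthest libraries. For the uterine milk protein row and GRP in E1, r was 0.59 and rho 0.63 (permutation p = 0.00812 and 0.00473), and r was 0.49 without the 2 farthest. SERPINA14 and CST6 had r = 0.53 and rho = 0.40 in E2 (permutation p = 0.0111 and 0.066), and r was 0.20 without EM S80 and NP S69, so it rests on those libraries. The uterine milk protein row and the first CST6 row had r = 0.16 and rho = 0.15 in E1 (permutation p = 0.497 and 0.532). LCN2 and the leukocyte sum had r = 0.81 and rho = 0.52 in E2 (permutation p = 0.00105 and 0.0134), but r was 0.36 without EM S83 and NP S65, so it rests on those libraries. In E1 r was 0.74 and rho 0.75 (permutation p = 0.00031 and 0.00033), and r was 0.74 without the 2 farthest.

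**Figure D4:**
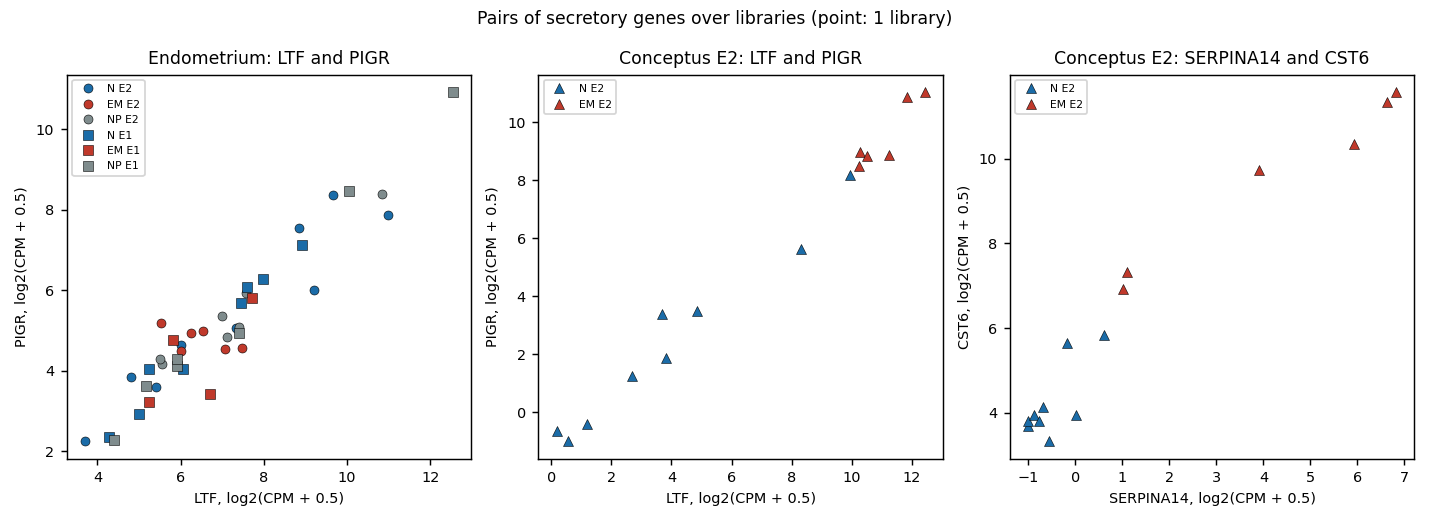
Pairs of members plotted against each other, 1 point per library (log2(CPM + 0.5) on both axes, coloured by group), with panels for LTF and PIGR in endometrium (E2 circles, E1 squares), LTF and PIGR in E2 conceptuses, and SERPINA14 and CST6 in E2 conceptuses. LTF and PIGR fall along a line in E2 endometrium (r = 0.93) and E1 endometrium (r = 0.98), and SERPINA14 and CST6 do so in E2 EM conceptuses (r = 0.99).

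The genes whose log2 CPM was most like each member's over the 22 E2 endometrium libraries are given with their r in E1 as a description, and all share the same libraries. For LTF they were AQP5, a water channel of gland cells (r = 0.98 in E2 and 0.91 in E1), CXCL17, a chemokine of mucosal surfaces (0.93 and 0.91), and PIGR (0.93 and 0.98). For PIGR they were AQP5 (0.93 and 0.92), LTF, and TFF3, a trefoil peptide of mucosal surfaces (0.93 and 0.95). For CST6 they were FXYD4 (0.95, with no E1 value), CDH17, a cadherin of epithelium (0.95 and 0.94), and HCRTR1, a receptor for orexin (0.93 and 0.89). For GRP they were SEC11C, a subunit of the enzyme that removes signal peptides (0.91 and 0.92), MAPK13 (0.88 and 0.79) and SH2D3A (0.84 and 0.78).

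The nearest genes of CST3 and OVGP1 had a lower r in E1. SERPINA14 was nearest to SPINK7, TMBIM4 and ABHD1 (all 0.91), of which ABHD1 had an E1 value against the uterine milk protein row (0.62, and -0.04 within groups). CST3 was nearest to POLR3D, PRRX2 and RPS6KB2 (0.88, 0.86 and 0.85 in E2, and -0.13, 0.12 and 0.28 in E1). OVGP1 was nearest to SRA1, SAFB2 and ZNF263 (0.83, 0.81 and 0.79 in E2, and 0.35, 0.20 and 0.38 in E1). LCN2 was nearest to WDR62, NAPSA and CYB561A3 (0.86, 0.86 and 0.85), with no E1 value.

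The conceptus libraries were read for the same transcripts, since an elongating conceptus is not known as a source of uterine serpin or gland peptide. In the N conceptuses of E2, SERPINA14, LCN2 and OVGP1 had medians under 1 CPM, and the other 5 members had medians from 3.12 (PIGR) to 185 CPM (CST3). SERPINA14 ranged from 0 to 1.03 CPM (median 0.12), with 2 libraries at a count of 0, which allows up to 0.151 and 0.175 CPM. In the EM conceptuses SERPINA14 was 60.3 CPM in S49, 112.6 in S51, 97.8 in S53, 1.52 in S55, 1.64 in S58 and 14.4 in S61. Every EM value was above every N value, but S55 and S58 were close to the highest N library, S59. EM was 135-fold N (log2 difference 7.07, SE 1.07, edgeR adjusted p = 4.02e-05).

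CST6 behaved alike. It was 1303 CPM in EM S49, 3054 in S51, 2580 in S53, 121.6 in S55, 160 in S58 and 856 in S61, against 9.57 to 57 in N (median 15). EM was 43.9-fold N (log2 difference 5.46, SE 0.74, edgeR adjusted p = 1.73e-05). The order of the 6 EM libraries was the same for SERPINA14 and CST6, with r = 0.99 (exact permutation p = 0.00139, adjusted p = 0.00293) and rho = 1 (exact permutation p = 0.00278). Without S55 and S58 r was 0.93. In the 9 N libraries r was 0.75 (exact permutation p = 0.0335) and rho 0.54 (exact permutation p = 0.141). This pair too was picked from these data, and its p-values do not allow for that choice.

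GRP was 2153 CPM in EM S49, 5017 in S51, 2542 in S53, 1813 in S55, 2017 in S58 and 3027 in S61. In the N conceptuses GRP ranged from 2.16 to 259 CPM with a median of 10.03. It was the evenest of the members that rose, with no EM library far below the others. EM was 41.4-fold N (log2 difference 5.37, SE 0.97, edgeR adjusted p = 0.000182), and without N S50, the N library with the most GRP, the log2 difference was 6.51.

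LTF and PIGR had another order over the EM libraries. LTF was 2421 CPM in S49, 1238 in S51, 1208 in S53, 3680 in S55, 1442 in S58 and 5485 in S61. PIGR was 464, 501, 364, 1868, 457 and 2121 CPM in the same libraries. Both were highest in S55 and S61, of which S55 had little SERPINA14, and LTF and SERPINA14 had r = -0.41 and rho = -0.66 in these 6 libraries (exact permutation p = 0.412 and 0.175). In the 9 N conceptuses the same pair had r = 0.61 and rho = 0.63 (exact permutation p = 0.0769 and 0.0781), and neither relation passed the test. In N, LTF ranged from 0.638 to 988 CPM (median 12.5) and PIGR from 0 to 288 (median 3.12), and N S50 held the highest value of both while N S56 followed with 317 and 49.5 CPM.

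The EM and N conceptuses did not overlap for LTF or PIGR. EM was 13.3-fold N for LTF (log2 difference 3.73, SE 1.32, edgeR adjusted p = 0.0199) and 19.2-fold for PIGR (log2 difference 4.26, SE 1.38, edgeR adjusted p = 0.012). Without N S50 these differences were 5.44 and 6.39 on the log2 scale. LTF and PIGR went together in the 9 N conceptuses of E2 (r = 0.98, exact permutation p = 2.2e-05, rho = 0.97, exact permutation p = 0.000165, r = 0.96 without S50 and S56) and in the 8 of E1 (r = 0.99, exact permutation p = 9.92e-05, rho = 0.95, exact permutation p = 0.00114). In the 6 EM conceptuses r was 0.91 (exact permutation p = 0.0167, rho = 0.83, exact permutation p = 0.0583), but 0.30 without S55 and S61, so there it rests on those libraries.

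LCN2 was 1.47, 2.92, 1.30, 1.04, 6.78 and 1.79 CPM in EM S49, S51, S53, S55, S58 and S61, and 0 to 0.221 CPM in N. The groups did not overlap, at 17.8-fold (log2 difference 4.15, SE 0.66, edgeR adjusted p = 6.46e-05). CST3 ranged from 93.7 to 639 CPM in EM (median 290) and from 154 to 245 in N (median 185), a log2 difference of 0.47 (SE 0.33, edgeR adjusted p = 0.224). It passed the test only without EM S58 (0.82, edgeR adjusted p = 0.0075). OVGP1 was 0.475 to 2.47 CPM in EM and 0.449 to 2.06 in N, a log2 difference of 0.19 (SE 0.40, 95% interval -0.58 to 0.97).

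By edgeR 6 of 8 members rose from N to EM conceptuses of E2 and 0 fell, beside 67.1% of all 15642 genes that passed the test, 35.3% higher and 31.8% lower. For all 6 the groups did not overlap, beside 28.7% of all genes. The median log2 difference over the 8 members was 4.21, and over all genes 0.07. DESeq2 called the same number, 6, beside 68.5% of all genes.

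**Figure D5:**
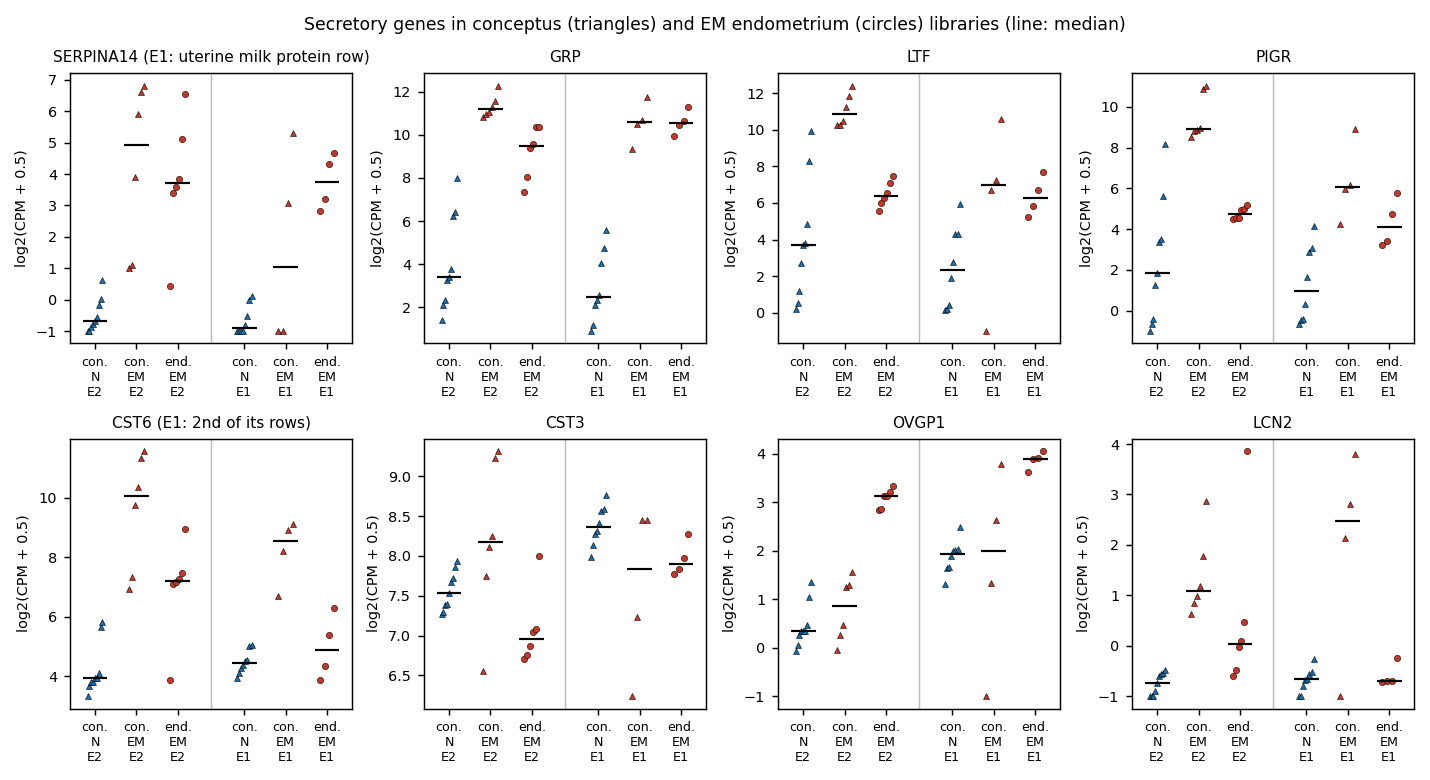
Level of each member in every conceptus library (triangles, y axis log2(CPM + 0.5), horizontal bars at group medians) for N and EM in E2 and E1, beside the EM endometrium libraries (circles), with E1 showing the uterine milk protein row under SERPINA14 and the second of the CST6 rows. In E2 the EM libraries lie above all N libraries for SERPINA14, CST6, GRP, LTF, PIGR and LCN2, and the groups overlap for CST3 and OVGP1.

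In the E1 conceptuses GRP was 3507 CPM in EM S2, 1652 in S3, 1460 in S4 and 646 in S5, against 1.36 to 47.3 in the 8 N libraries. EM was 155-fold N (log2 difference 7.28, SE 0.79, edgeR adjusted p = 1.64e-06). The CST6 rows rose by 4.12 (SE 0.20) and 4.21 (SE 0.23) on the log2 scale, from N medians of 9.59 and 21.3 CPM to EM medians of 120 and 390. PIGR was 18.7 to 478 CPM in EM and 0.137 to 17.2 in N (log2 difference 5.79, SE 0.92, edgeR adjusted p = 0.000104), and 3.75 without EM S3. The lowest EM value of PIGR was 2 counts in S5, close to the 17.2 CPM of N S12, so its lack of overlap is at the limit of counting. LTF was 151 CPM in EM S2, 1548 in S3, 102.7 in S4 and 0 in S5, where a count of 0 allows up to 28.1 CPM, against 0.617 to 60.2 in N. The groups overlapped through S5 alone, the log2 difference was 5.54 (SE 1.10, edgeR adjusted p = 0.00081), and without EM S3 it was 2.96 (edgeR adjusted p = 0.0547) and did not pass.

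CST3 in the E1 conceptuses was 74.9 to 349 CPM in EM and 253 to 433 in N (log2 difference -0.33, SE 0.20, edgeR adjusted p = 0.176). OVGP1 was 0 to 13.4 CPM in EM, the highest being 3 counts in S4, and 2.01 to 5.12 in N (0.53, SE 0.40, edgeR adjusted p = 0.281). The uterine milk protein row held 38.9 and 7.97 CPM in EM S2 and S3 and no count in S4 and S5, which allows up to 13.4 and 28.1 CPM, and at most 0.588 CPM in N. It and LCN2 (0 to 13.4 CPM in EM, 0 to 0.336 in N) did not pass the filter on low counts. Of 6 members tested, 4 were higher (GRP, CST6, PIGR and LTF) and 0 lower. Of all 11211 genes tested, 47.1% passed, made up of 25.4% higher and 21.7% lower. For 3 of the 4 (GRP, CST6 and PIGR) the groups did not overlap, beside 20.4% of all genes. For PIGR this rests on 2 counts in EM S5. DESeq2 called 3, giving no adjusted p for PIGR, beside 41% of all genes. Leaving out EM S4 and S5 together kept the same 4 calls. No member differed between experiments by edgeR after adjustment, and CST3 alone had an unadjusted p under 0.05 (1.00 higher in E2, SE 0.42, edgeR adjusted p = 0.271).

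Markers of other cells moved with these members. In E2, 7 of 8 stroma markers, 6 of 6 leukocyte markers and 5 of 5 tested neutrophil markers rose from N to EM conceptuses, and 7 of 8 trophoblast markers fell. Of all genes tested in this comparison, 35.3% were higher and 31.8% lower. The stroma sum was 77.7 to 1556 CPM in EM and 11.2 to 47.8 in N, the leukocyte sum 120 to 1162 against 0.993 to 12.9, and the neutrophil sum 187 to 2353 against 0.0503 to 5.61. The trophoblast sum was 139 to 24829 CPM in EM and 30416 to 50580 in N. The epithelial sum, whose keratins the trophectoderm shares, was 2608 to 19840 in EM and 22691 to 46251 in N. The neutrophil markers that rose were BPI, CXCR2, S100A12, S100A8 and S100A9. Some genes of neutrophil granules were at or near 0 in both groups. CATHL1 had no count in any E2 conceptus. CATHL2 and MPO had medians of 0 CPM in N and in EM, with at most 0.0514 and 0.103 CPM in EM. ELANE, an elastase of the same granules, was 0.0576 to 1.63 CPM in EM and at most 0.0898 in N. The erythrocyte sum was 8.64 to 447 CPM in EM and 1.38 to 25.01 in N of E2, and 81.3 to 42063 in EM, the highest being S3, and 2.49 to 40.2 in N of E1. The interferon response sum was 545 to 12317 CPM in EM and 2.87 to 1128 in N of E2, with its highest N value in S50, the N library that also held the most GRP, LTF and PIGR, and 74.9 to 1365 against 2.01 to 68.4 in E1. In E1 the EM sums were 519 to 1040 CPM for stroma and 506 to 1310 for neutrophils, against at most 52.6 and 19.6 in N. The part of uterine, blood or conceptus cells in the members' rise was not tested.

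Set against the endometrium, the members of the EM conceptuses were not a uniform fraction of it. In E2 the conceptus median was 23 times the EM endometrium median for LTF, 18.1 times for PIGR, 7.26 times for CST6, 3.26 times for GRP, 3.07 times for LCN2, 2.96 times for SERPINA14 and 2.33 times for CST3, but 0.169 times for OVGP1. For LTF, PIGR and GRP all 6 EM conceptuses were above all 6 EM endometria, beside 3.06% of 18273 genes. For OVGP1 all were below, beside 25.7% of genes. The stroma sum in the EM conceptuses was 3.86% of that in EM endometrium, while the leukocyte sum was 254% and the neutrophil sum 2726%.

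In E1 the EM conceptus median was 12.7 and 7.34 times the EM endometrium median for the CST6 rows, 3.64 times for PIGR, 1.58 times for LTF, 1.04 times for CST3, 1.03 times for GRP, 0.285 times for the uterine milk protein row and 0.269 times for OVGP1. LCN2 had the highest ratio, 44.5 times, between medians of 5.22 and 0.117 CPM, and it ranged from 0 to 13.4 CPM in those 4 conceptuses, where EM S4 and S5 are shallow. Both CST6 rows were above every EM endometrium in all 4 conceptuses, beside 3.65% of 14065 genes, and GRP was not. No member row was below every EM endometrium in all 4, beside 49.6% of genes. OVGP1 was below in 3 of the 4, of which S5 had a count of 0 that allows up to 28.1 CPM. In EM S4 its 13.4 CPM was 3 counts, against 11.8 CPM in the lowest EM endometrium. The stroma sum was 2.68% of the endometrium median and the neutrophil sum 3056%. In N conceptuses of E2 the median was 0.371% of the N endometrium for SERPINA14, 0.861% for GRP, 7.76% for LTF, 9.45% for PIGR, 9.58% for OVGP1 12.3% for CST6 and 87.4% for LCN2, which was near the limit of counting in both tissues, but 138% for CST3. These ratios compare CPM of different tissues and carry no test.

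Among other secreted proteins of the uterine epithelium, LGALS9 and LGALS3BP passed the test in the endometrium. Of a list of 20, by edgeR 2 were higher in N than in NP of E2 and 0 were lower, beside 1.41% of all genes called, with a median log2 difference of 0.44 (0.01 over all genes). They were LGALS9, a galectin (184 ± 89.1 CPM in N and 41.4 ± 11.6 in NP, log2 difference 2.28, SE 0.38, adjusted p = 0.0026), and LGALS3BP, a glycoprotein that binds galectin (1.51, SE 0.33, adjusted p = 0.0182, and 0.0508 without NP S68). In E1, LGALS3BP and LGALS9 were again the 2 of 19 tested that were higher in N than in NP (1.40 and 1.85), beside 2.52% of all genes called, and both were lower in EM than in N (-1.34 and -1.69, edgeR adjusted p = 0.0093 and 0.0176). Those EM minus N calls were lost without EM S16 or without EM S17, with edgeR adjusted p-values of up to 0.0653 and 0.112, and in a fit of only EM and N libraries (0.0535 and 0.0510). In E2, 0 of 20 passed in EM minus N by edgeR, with 0 at an unadjusted p under 0.05 and 0 by DESeq2, and 0 of 20 in EM minus NP, with 7 at an unadjusted p under 0.05 and 1 (LGALS9) by DESeq2. DESeq2 called more of the list in E1, 6 for N minus NP and 6 for EM minus N, beside 5.25% and 4.22% of all genes.

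Of the proteases that cystatins block, 0 of 9 tested passed in any E2 endometrium contrast by edgeR, and 0 by DESeq2. At an unadjusted p under 0.05 the counts were 1 for N minus NP (CTSS), 0 for EM minus N and 1 for EM minus NP (CTSK). In E1, CTSS (cathepsin S) and CTSZ were higher in N than in NP, by 1.00 and 0.61 on the log2 scale, and CTSS was lower in EM than in N by -1.24 (edgeR adjusted p = 0.0297). The latter call was lost without any 1 of EM S14, S15, S16 or S17, N S21 or N S24, with edgeR adjusted p-values of up to 0.141, and in the fit of only EM and N libraries (0.0629). The CTSZ call, at an adjusted p of 0.0442, was lost in most fits that left out 1 library. Among receptors and partners of the members, JCHAIN, the joining chain of the immunoglobulin that PIGR carries, was 319 ± 219 CPM in N and 188 ± 127.7 in NP of E2 (0.87, edgeR adjusted p = 0.757), and LRP2, an uptake receptor that binds LCN2 among many ligands, was 559 ± 592 and 496 ± 283 (0.30, edgeR adjusted p = 0.965).

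Most genes of the secreted and protease lists were higher in the EM conceptuses. Of the 20 secreted proteins 14 were higher and 3 lower in EM than in N of E2 (median 2.87), and in E1 11 were higher and 3 lower of 16 tested (median 1.55). SPP1, an adhesion protein, rose by 5.81 in E2, TIMP2, a metalloprotease inhibitor, by 4.44 in E2 and 3.31 in E1, and TCN1, a carrier of vitamin B12, by 8.80 in E1. Of the cysteine proteases 7 of 9 tested were higher and 1 lower in E2 (median 1.66), with CTSS up by 5.54 and LGMN (legumain, a target of CST6) by 3.77, and 7 of 8 were higher in E1. JCHAIN was 525 ± 752 CPM in EM and 0.956 ± 0.908 in N of E2 (log2 difference 8.69, SE 1.01, edgeR adjusted p = 5.75e-06). LRP2, at 2158 ± 691 CPM in N conceptuses of E2, was lower in EM by -3.64 in E2 and -1.37 in E1. Among other cystatins CST7, a cystatin of leukocytes, was 5.03 higher in E2, while in E1 CSTA was lower by -1.97, as were the CSTB rows by -1.29 and -0.47. The CSTB call at -0.47 was lost with DESeq2 (adjusted p = 0.11) and that at -1.29 without EM S3 (adjusted p = 0.149). These shares stand beside the 67.1% and 47.1% of all genes that passed in the same comparisons.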

How the data were processed

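RNA from conceptus, endometrium, corpus luteum and mononuclear cells of the blood was sequenced from stranded mRNA libraries. The authors deposited raw read counts, 1 value per gene and library: reads of E2 were aligned to ARS-UCD 1.2 and E1 tables carry UMD3.1 positions, and the sources used here do not name the counting program. Of 129 samples 127 were mapped to a group by their labels, 2 were not, and 2 columns of library values were left out. Of 35186 rows of an E2 file, 28 repeats were dropped, and 4629 of 24616 E1 rows had no symbol. The name S77 heads a column among both EM and N endometrium of E2, with different counts, and the N column was used as an N library from its sheet. Which libraries of different tissues share a cow is not stated.

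Tests were run with edgeR 4.0.16 in R 4.3.3 (genes kept by filterByExpr at a minimum count of 10, scaling by TMM, quasi-likelihood test, Benjamini-Hochberg adjustment over all genes at 0.05), with 1 fit per tissue and experiment over all its groups. The SE is the size of the log2 difference divided by the square root of F, and intervals are unadjusted, at 1.96 SE. CPM divides a count by the library total without TMM. A count of 0 allows up to 3 counts, which covers counting error only. Correlations used log2 CPM with a pseudocount of 0.5, and the most alike genes limma 3.58.1 and edgeR log2 CPM with a prior count of 2. Relations were tested in Python 3.11.15, by exact permutation under 10 libraries and 100000 draws otherwise. DESeq2 1.42.0, RLE factors, other filters, fits of only the compared groups and leaving out each library were alternatives. The settings without EM S4 and S5, without EM S83 and NP S69, and with the uterine milk protein and summed CST6 rows were chosen after seeing the data. The scripts were tested on simulated data. The genes named are the 8 members, up to 4 genes of each list by the smallest p, and the 3 genes most like each member. The members and lists were chosen with earlier results of these data known.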

Additional observations from a re-analysis of the deposited data

Results flagged for a closer look

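In 85 groups of 4 to 10 libraries the highest or lowest value of a member was compared with the nearest one, by Dixon's 95% criterion, and 8 values stood apart. Chance gives about 1 in 20.

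In E2 endometrium NP S69 was high for LTF (1828 CPM, next 190) and PIGR (337 CPM, next 60.8). N S72 was high for CST3 (352 CPM, next 180) and OVGP1 (14.98 CPM, next 8.27), and EM S75 was high for CST3 (257 CPM, next 135). EM S80 was low for CST6 (14.4 CPM, next 138), and it also held the lowest SERPINA14 of the EM libraries, 0.863 CPM. EM S83 was high for LCN2 (14.1 CPM, next 0.879), in the library with a leukocyte marker sum of 1974 CPM. In E1 endometrium EM S14 was high for LCN2 (0.343 CPM, next 0.119), at the limit of counting.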

How the results depend on the processing

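The 6 members called in E2 conceptuses kept their call in each fit without 1 library. No paired analysis was made, because the labels give no pairing of libraries between the groups compared. The name S77 in both EM and N of E2 endometrium belongs to different libraries. Members called in E1 endometrium for N minus NP were 0 by edgeR, 3 by DESeq2, and 0 to 1 over fits without 1 library, the 1 being OVGP1 without NP S31. Without EM S83 and NP S69 together, E2 endometrium gave CST6 -0.016 for N minus NP, and CST3 0.27 and LCN2 -0.15 for EM minus NP, against 0.18, -0.05 and 2.77.

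Uncalled differences that changed sign when 1 library was left out ranged as follows in E2 endometrium. CST3 ran from -0.47 to 0.060 for EM minus N, from -0.30 to 0.24 for EM minus NP and from -0.13 to 0.47 for N minus NP, and CST6 from -0.55 to 0.64, from -0.38 to 0.55 and from -0.46 to 0.53. For N minus NP, LTF ran from -0.47 to 2.10, PIGR from -0.10 to 1.75 and OVGP1 from -0.24 to 0.026, and OVGP1 for EM minus N from -0.19 to 0.038. In E1 endometrium GRP ran from -0.085 to 1.46 for EM minus NP and from -0.38 to 1.05 for N minus NP. For differences between experiments, CST3 ran from -0.084 to 0.41 (endometrium, EM minus N) and from -0.37 to 0.15 (N minus NP), and GRP from -0.50 to 0.92 (N minus NP). In conceptus LTF ran from -2.45 to 1.15, OVGP1 from -0.80 to 0.078 and PIGR from -1.91 to 0.81.

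DESeq2 called more genes in endometrium than edgeR, with 517 against 268 (N minus NP), 33 against 0 (EM minus N) and 253 against 47 (EM minus NP) in E2, and 739 against 355 (N minus NP) and 595 against 195 in E1. For EM minus NP of E1 DESeq2 called 0.817% of genes, against 0.0426% by edgeR. Fits of only the compared groups called 0 for EM minus NP in E2 and 25 for EM minus N in E1, and leaving out EM S83 and NP S69 together gave 0 for EM minus NP. The causes were not tested. LCN2 passed the filter in 18 of the fits of E2 endometrium without 1 library. Depth limited LCN2, and in E1 conceptuses EM S4 and S5 limited every member at a low level.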

Other observations

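Outside the uterus and conceptus, LTF and PIGR were high together in single corpus luteum libraries of E2. LTF was 2063 CPM in EM S121 and 506 in N S119, against a median of 17.2 over the 22 libraries, and PIGR was 1598 and 326 in the same libraries, against a median of 2.67. PIGR was also high in N S124 (577 CPM) and N S122 (175). EM S121 had an epithelium marker sum of 1941 CPM, a neutrophil sum of 1597 and a luteal sum of 4540, against medians of 123.5, 13.02 and 27838 in the EM libraries. The epithelium sum was 357 CPM in N S119, 399 in N S124 and 168 in N S122, against an N median of 93.9, and NP S109 had a luteal sum of 266 CPM. The part of epithelium or neutrophils in the LTF and PIGR values was not tested. GRP was 100.9 CPM in NP S123 and 30.9 in N S124, against a median of 0.723.

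In mononuclear cells of the blood SERPINA14 had no count in any of the 22 E2 libraries, and GRP was at most 0.081 CPM. LCN2 ranged from 8.35 to 59.3 CPM in E2, and in E1 from 0.427 to 120, the lowest being NP S47, which was also lowest for CST3 (1.92 CPM). NP S47 stands apart from the other E1 blood libraries, with a leukocyte marker sum of 50.1 CPM against at least 1872 and 9544 genes with a count against at least 12159. OVGP1 ranged from 5.01 to 13.7 CPM in E2 blood cells, close to its 6.01 to 15 CPM in E2 N endometrium.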
